A study of Mus musculus with 12 samples.

Results

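The genes described here are 10 components of the cell's response to misfolded protein in the endoplasmic reticulum (ER): the chaperones Hspa5 and Hsp90b1, the co-chaperones Dnajb9, Dnajc3 and Sdf2l1, the disulfide enzymes Pdia4 and Creld2, and the transcription factors Xbp1, Atf4 and Ddit3. They were chosen by measured values, namely a lower level in unexposed Rgs4 knockout lung than in wild-type lung and a larger response to Aspergillus fumigatus (Af) in the knockout. Each symbol matched 1 row of the deposited table, so the set is 10 of 49585 genes. All 10 were among the 16126 genes that reached 1 CPM (read counts scaled to library size, with the authors' TMM factors) in at least 3 of the 12 libraries. The values that chose the genes are given below as descriptions, with no call or p-value. The only difference tested for the 10 genes is that between knockout and wild type under Af, and those libraries had entered the choice through the response in the knockout.

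The libraries are poly-A RNA from whole mouse lung, in a study of the regulator of G protein signalling Rgs4 in asthma, with 3 libraries in each of 4 groups. WT_PBS (libraries 15 to 17) was wild type given phosphate-buffered saline (PBS), KO_PBS (9 to 11) was Rgs4 knockout given PBS, WT_Af (18 to 20) was wild type given the mould Af, and KO_Af (12 to 14) was knockout given Af. All carry the strain label Balb/cJ. Neither the labels nor the design text used here give the knockout construct, the animals' age and sex, any pooling of animals, or how, how much and when Af was applied. Levels below are CPM, differences are on the log2(CPM + 0.5) scale with their standard error (SE), and group values are mean ± SD with n = 3 libraries.

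ER stress is the state in which unfolded protein builds up in the compartment where secreted and membrane proteins are made. The ER membrane proteins IRE1, PERK and ATF6 sense it: IRE1 splices Xbp1 mRNA into the form that encodes an active factor, PERK slows translation and favours synthesis of ATF4, which induces Ddit3 (CHOP), and cleaved ATF6 enters the nucleus and induces chaperones. Much of this output is controlled after transcription, and the gene-level values here do not separate spliced from unspliced Xbp1. In the lung, cells with a heavy secretory load, such as mucous cells, alveolar type 2 cells and plasma cells, rely on the pathway.

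ATF6 acts through the ER stress response element (ERSE), a CCAAT box and a CCACG box held apart by a fixed gap. The measured values that chose the genes did not include promoter letters. The genes were however also taken as known components of the ER stress response. Matches to an element of that response therefore describe the set and are no independent support for it. Promoter windows from 250 bases before to 50 after the RefSeq start (GRCm38.p6) were found for all 10 genes, and 32851 windows of the same length were searched on both strands. The letters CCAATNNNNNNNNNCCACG occurred in 4 of the 10 genes, Hspa5, Hsp90b1, Dnajc3 and Creld2, and in 0.119% of all windows. With up to 1 mismatch they occurred in 6 of the 10, adding Pdia4 and Ddit3, and in 1.5% of all windows. Each stretch below runs 5′ to 3′ on the gene's strand, and capitals mark the 2 boxes of the match, which read CGTGG and ATTGG where the match lies on the reverse strand.
Hspa5, chr2:34772020-34772049, plus strand: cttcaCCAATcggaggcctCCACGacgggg
Hsp90b1, chr10:86705513-86705676, minus strand: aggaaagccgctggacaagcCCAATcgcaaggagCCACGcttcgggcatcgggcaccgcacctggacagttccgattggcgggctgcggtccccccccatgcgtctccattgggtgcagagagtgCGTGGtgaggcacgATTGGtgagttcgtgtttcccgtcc
Dnajc3, chr14:118937807-118937865, plus strand: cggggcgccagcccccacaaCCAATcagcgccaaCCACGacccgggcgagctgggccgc
Creld2, chr15:88819500-88819558, plus strand: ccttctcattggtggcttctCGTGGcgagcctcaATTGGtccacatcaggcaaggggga
Pdia4, chr6:47813582-47813640, minus strand, 1 mismatch: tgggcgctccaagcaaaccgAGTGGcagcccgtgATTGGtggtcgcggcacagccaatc
Ddit3, chr10:127290697-127290726, plus strand, 1 mismatch: gccagCGTGCcgctttctgATTGGtaggct
Hsp90b1 held the element on both strands, with the 2 matches beginning 212 and 107 bases before the start. In the other 5 genes the match began 65 (Hspa5) to 126 (Creld2) bases before it. The Hspa5 stretch lies in an exon of a GENCODE M21 transcript of the gene that starts earlier than the RefSeq start used here. A CCAAT box on its own, which is part of the ERSE, was found in 9 of the 10 genes, all but Xbp1, and in 37.4% of all windows. None of the 10 windows held ERSE-II (ATTGGNCCACG, 0.0365% of all windows), the XBP1 element TGACGTGG (0.676%), the cyclic AMP element TGACGTCA (1.79%), the ATF4 and C/EBP composite TGATGNAAN (3.95%) or the palindromic glucocorticoid receptor element (0.475%). A match is a run of letters, not a measured binding site, and a missing match covers these windows only.

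Rgs4 (ENSMUSG00000038530, chromosome 1, 169741477 to 169747642, GRCm38), the gene deleted in the knockout, was at 22.9 ± 2.63 CPM in WT_PBS and 45.1 ± 3.27 CPM in WT_Af. The 6 knockout libraries lay between 0.571 and 1.47 CPM, below every wild-type library. The lung genes Sftpc (surfactant of alveolar type 2 cells), Scgb1a1 (club cell secretoglobin) and Ager (alveolar type 1 cells) were present in all libraries, at 5709 or more, 6597 or more and 635 or more CPM. The libraries held 20708884 to 30229446 reads, and the lowest read count of any of the 10 genes in any library was 265, for Sdf2l1. WT_PBS 17 and KO_Af 12 carried Krt13, a keratin of squamous epithelium, at 240 and 137 CPM, against at most 0.505 CPM in the other 10 libraries. Counts led with below were also computed without those libraries. Library number and genotype coincide in the labels (9 to 14 for knockout, 15 to 20 for wild type), so a difference that follows the order of processing cannot be told apart from genotype. Within each genotype every PBS library has a lower number than every Af library, so the same limit holds for the response to Af.

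Hspa5 (BiP; chromosome 2, 34771970 to 34777547) is the main Hsp70 chaperone of the ER lumen and holds the stress sensors inactive. It was at 792, 606 and 742 CPM in WT_PBS 15, 16 and 17 and at 376, 398 and 433 CPM in KO_PBS 9, 10 and 11. The knockout libraries all lay below the wild type, with a mean 56.4% of it. After Af it was at 1118, 1297 and 1138 CPM in WT_Af 18, 19 and 20, and KO_Af 12, 13 and 14 were at 1020, 1114 and 819 CPM, again all below the wild type. Among the 10 genes Hspa5 had the largest genotype difference under PBS, -0.82 ± 0.14 (SE). In bulk tissue, fewer cells of a type and less RNA per cell cannot be told apart.

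Hsp90b1 (GRP94; chromosome 10, 86690209 to 86705509), the ER member of the Hsp90 family, folds receptors and integrins. It was at 863, 770 and 818 CPM in WT_PBS and 617, 615 and 652 CPM in KO_PBS, so the groups did not overlap. After Af the wild-type libraries were at 1116, 1143 and 1108 CPM and the knockout libraries at 971, 1237 and 973 CPM, with library 13 above every wild-type value and 12 and 14 below. Per kilobase of merged exon Hsp90b1 was the highest of the 10 genes in WT_PBS, at 203 ± 11.6 CPM per kb, followed by Hspa5 at 169 ± 22.7 and Atf4 at 83 ± 11.2 CPM per kb. In KO_PBS the same 3 genes led, with Hsp90b1 at 156 ± 5.27, Hspa5 at 95.1 ± 6.85 and Atf4 at 72.1 ± 2.28 CPM per kb. In WT_Af Hspa5 and Hsp90b1 were at 280 ± 23.2 and 278 ± 4.55 CPM per kb, values that did not differ beyond their spread. Hsp90b1 shares 415 exon bases with an opposite-strand pseudogene at a mean of 2.75 CPM, and no source used here says whether strand was used in counting.

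The co-chaperones help Hspa5 or its clients. Dnajb9 (ERdj4; chromosome 12, 44205559 to 44210326), a J-domain partner of Hspa5 that also restrains IRE1, was at 84.4, 72.8 and 81.9 CPM in WT_PBS and 57.4, 53.7 and 57.5 CPM in KO_PBS. In WT_Af it was at 90.4, 98 and 85.9 CPM, while KO_Af spread from 60 CPM in library 14 through 76.2 CPM in 13 to 99 CPM in 12. That spread, an SD of 19.6 CPM on a mean of 78.4, covered the WT_Af values. Dnajc3 (p58IPK; chromosome 14, 118937976 to 118981697), a J-domain protein known to inhibit PERK, was at 215, 194 and 199 CPM in WT_PBS and 167, 176 and 164 CPM in KO_PBS. It was at 202, 222 and 200 CPM in WT_Af and at 204, 211 and 172 CPM in KO_Af. Dnajc3 was the flattest of the 10 genes under Af, and its Af and PBS libraries overlapped in both genotypes.

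Sdf2l1 (chromosome 16, 17130138 to 17132383), a cofactor of the ER chaperone complex, had the largest response to Af of the 10 genes. It was at 17, 14.9 and 18 CPM in WT_PBS and 9.42, 11.8 and 13 CPM in KO_PBS, against 51.6, 65.3 and 53.9 CPM in WT_Af and 58.6, 55.1 and 40.6 CPM in KO_Af. The PBS groups were apart and the Af groups overlapped. Per kilobase its level in WT_PBS, 15 ± 1.43 CPM per kb, did not differ beyond the spread from that of Ddit3, 13.8 ± 1.21 CPM per kb, which was the lowest of the 10.

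Of the disulfide enzymes, Pdia4 had overlapping genotypes under Af and Creld2 did not. Whether their genotype differences were unlike was not tested. Pdia4 (ERp72; chromosome 6, 47796141 to 47813430), a protein disulfide isomerase, was at 146, 122 and 142 CPM in WT_PBS and 96.1, 101 and 110 CPM in KO_PBS. Its 3 WT_Af libraries were at 256, 312 and 307 CPM and those of KO_Af at 226, 314 and 242 CPM, where library 13 exceeded every wild-type library. Creld2 (chromosome 15, 88819646 to 88826683), a secreted ER stress protein with isomerase activity, was at 46, 39.1 and 46.3 CPM in WT_PBS and 29.3, 26.5 and 27.5 CPM in KO_PBS. It was at 95.5, 98.6 and 81.4 CPM in WT_Af and at 77.9, 79.5 and 56.6 CPM in KO_Af. Creld2 stayed below the wild type in all knockout libraries under either exposure, unlike Pdia4.

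Xbp1 (chromosome 11, 5520659 to 5525893), the target of IRE1 and a factor needed by plasma cells, was at 248, 212 and 244 CPM in WT_PBS and at 187, 182 and 182 CPM in KO_PBS. Under Af the order turned, with 285, 315 and 313 CPM in WT_Af and 352, 370 and 329 CPM in KO_Af. Xbp1 was the only one of the 10 genes whose knockout libraries all lay below the wild type under PBS and all above it under Af. Per kilobase it was at 72.2 ± 6.02 CPM in WT_PBS and 108 ± 6.39 CPM in KO_Af.

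Atf4 (chromosome 15, 80255184 to 80257541), the factor whose translation PERK favours, met the PBS part of the rule least clearly. It was at 168, 199 and 220 CPM in WT_PBS and at 164, 174 and 171 CPM in KO_PBS, so wild-type library 15 lay inside the knockout range. Under Af it was at 298, 352 and 368 CPM in WT_Af and 315, 327 and 384 CPM in KO_Af, ranges that overlapped. Ddit3 (CHOP; chromosome 10, 127290774 to 127296288), which Atf4 induces and which is linked to cell death, was at 21.9, 23 and 25.9 CPM in WT_PBS and 14.9, 13.5 and 15.6 CPM in KO_PBS. It was at 29.6, 32.8 and 27.3 CPM in WT_Af and 25.2, 21.5 and 21 CPM in KO_Af, the knockout below the wild type under either exposure. Ddit3 shares 68 exon bases with Mars on the opposite strand, which had a mean of 51.4 CPM, so its level is uncertain where the counting ignored strand.

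**Figure D1:**
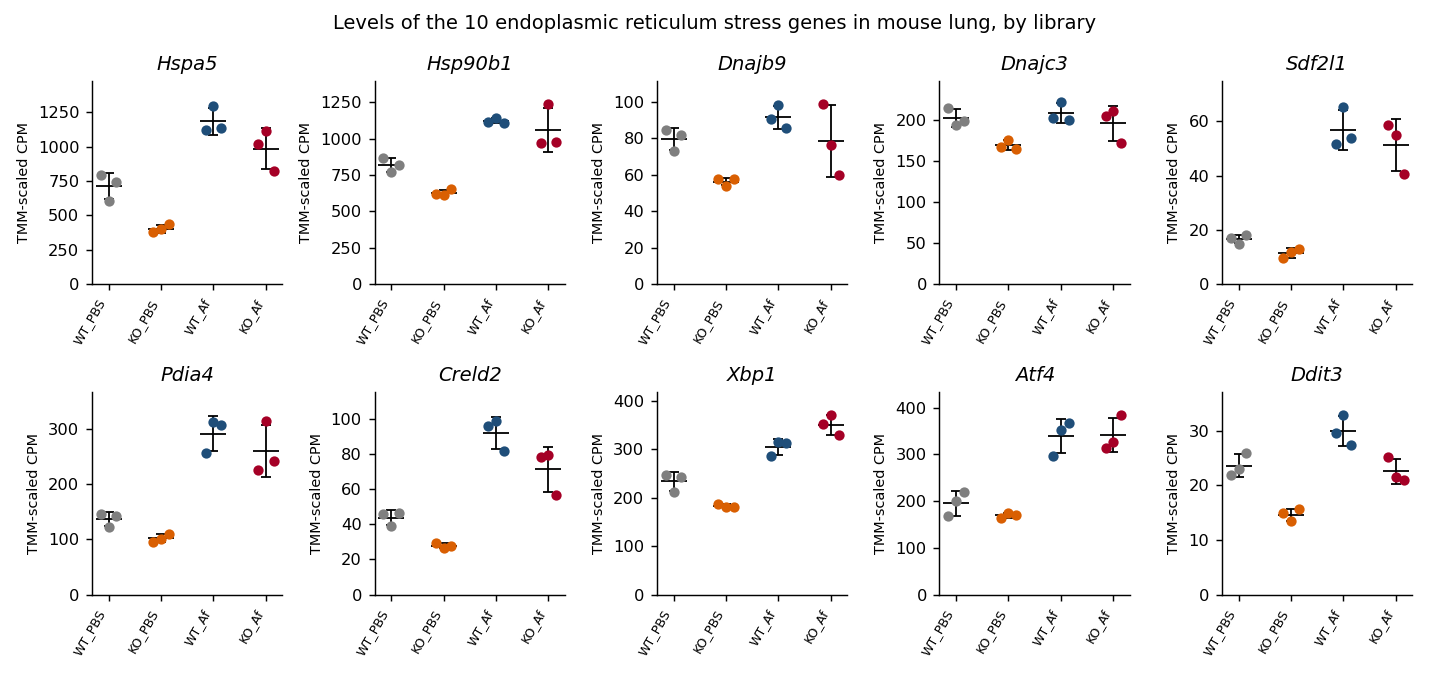
Level of each of the 10 genes in TMM-scaled CPM (linear axes from 0) in the 12 libraries, with 3 points per group, the group mean as a horizontal line and the SD as a bar. KO_PBS lies below WT_PBS in every panel but that of Atf4, where the groups overlap, and Xbp1 alone has KO_Af wholly above WT_Af.

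Under PBS, 9 of the 10 genes had knockout libraries that did not overlap the wild type, all lower, beside 15.7% of all tested genes with lower non-overlapping groups. The genes were selected on this difference, so this count describes the choice. The differences ran from -0.82 ± 0.14 (SE) for Hspa5 and -0.67 ± 0.11 for Ddit3 to -0.26 ± 0.09 for Dnajc3 and -0.20 ± 0.12 for Atf4, with a median of -0.46. Knockout means were thus 56.4% (Hspa5), 62% (Ddit3) and 63.4% (Creld2) of the wild type at one end and 83.4% (Dnajc3) and 86.8% (Atf4) at the other.

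The rule also asked for a larger response to Af in the knockout. In knockout lung, 9 of the 10 genes had Af libraries wholly above the PBS libraries, beside 31.1% of all tested genes. In wild-type lung 9 were wholly above, beside 32.7% of all genes. Dnajc3 overlapped in both genotypes. These counts follow from the choice of the genes. The responses share their PBS libraries with the genotype difference above, so a low KO_PBS level enters both.

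The largest responses were those of Sdf2l1, 2.12 ± 0.16 in the knockout and 1.74 ± 0.16 in the wild type, or 4.35-fold and 3.34-fold. Pdia4 and Creld2 followed, with 1.33 ± 0.13 for each in the knockout and 1.09 ± 0.13 and 1.06 ± 0.13 in the wild type. Hspa5 responded by 1.28 ± 0.14 in the knockout and 0.74 ± 0.14 in the wild type, and Xbp1 by 0.93 ± 0.08 and 0.38 ± 0.08. The difference between the responses was largest for Xbp1, 0.55 ± 0.12, and Hspa5, 0.54 ± 0.20, and smallest for Dnajc3, 0.17 ± 0.13. All 10 differences were positive, as the rule required, with a median of 0.27.

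**Figure D2:**
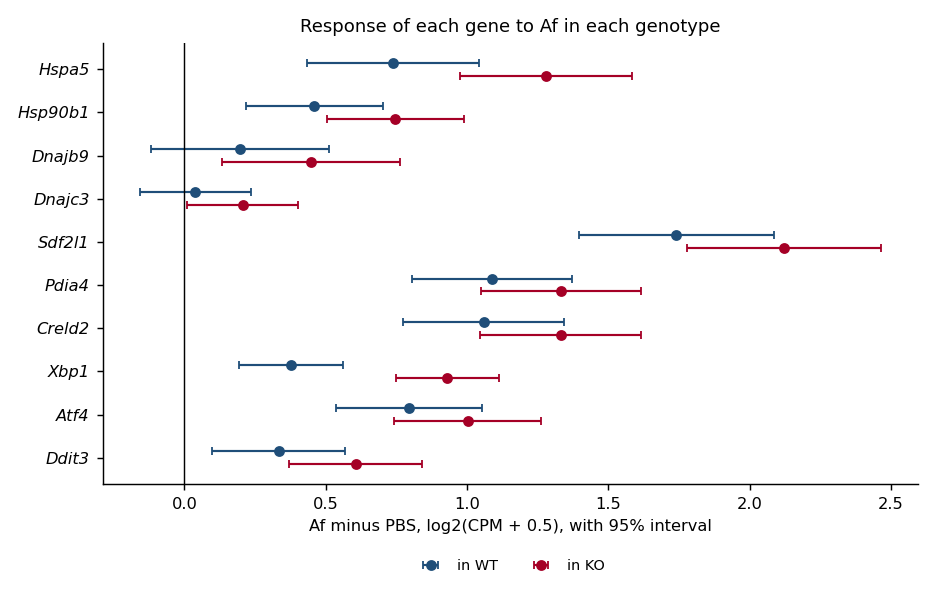
Af minus PBS for each gene in wild-type (blue) and knockout (red) lung, on the log2(CPM + 0.5) scale, with 95% intervals from limma. Every knockout point lies to the right of its wild-type point, which is the pattern the genes were chosen for, and Sdf2l1 lies farthest right at 2.12 in the knockout.

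After Af, none of the 10 genes differed between genotypes at an adjusted p under 0.05 by limma, edgeR or DESeq2. Of all genes, limma called 0.0372% higher and 0.0496% lower in the knockout, edgeR 5 and 8 genes, and DESeq2 78 and 111 genes. At an unadjusted limma p under 0.05 there were 3 of the 10, Ddit3 and Creld2 lower and Xbp1 higher, beside 1807 of all 16126 genes in either direction. Ddit3 had the largest difference, -0.40 ± 0.11 (95% interval -0.63 to -0.16, limma adjusted p = 0.257), and its lowest wild-type library was above its highest knockout library. Creld2 differed by -0.37 ± 0.13 (-0.66 to -0.09, adjusted p = 0.376) and Xbp1 by 0.20 ± 0.08 (0.02 to 0.39, adjusted p = 0.425). Hspa5 differed by -0.28 ± 0.14, with an interval from -0.58 to 0.03 that leaves room for a level 0.669 times that of the wild type (adjusted p = 0.474). For Atf4 the interval ran from -0.25 to 0.27 and for Hsp90b1 from -0.33 to 0.15. Groups did not overlap for Hspa5, Creld2 and Ddit3 (3 of 10 lower, beside 6.1% of all genes) and for Xbp1 (1 of 10 higher, beside 7.66%).

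The signs of the differences of Sdf2l1 and Atf4 rest on single libraries. That of Sdf2l1, -0.16 ± 0.16, became 0.0051 without KO_Af 14, and that of Atf4, 0.01 ± 0.12, became -0.0794 without WT_Af 18 and -0.0742 without KO_Af 14. The differences of Hsp90b1 and Dnajc3, both -0.09 and so smaller than that of Sdf2l1, kept their sign in all 22 alternatives. Across the 22 alternative analyses no member was called between genotypes under Af, and the lowest adjusted p was 0.0766. Within KO_Af, library 14 was the lowest for 7 of the 10 genes and library 13 the highest for 6, and within WT_Af library 19 was the highest for 9.

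**Figure D3:**
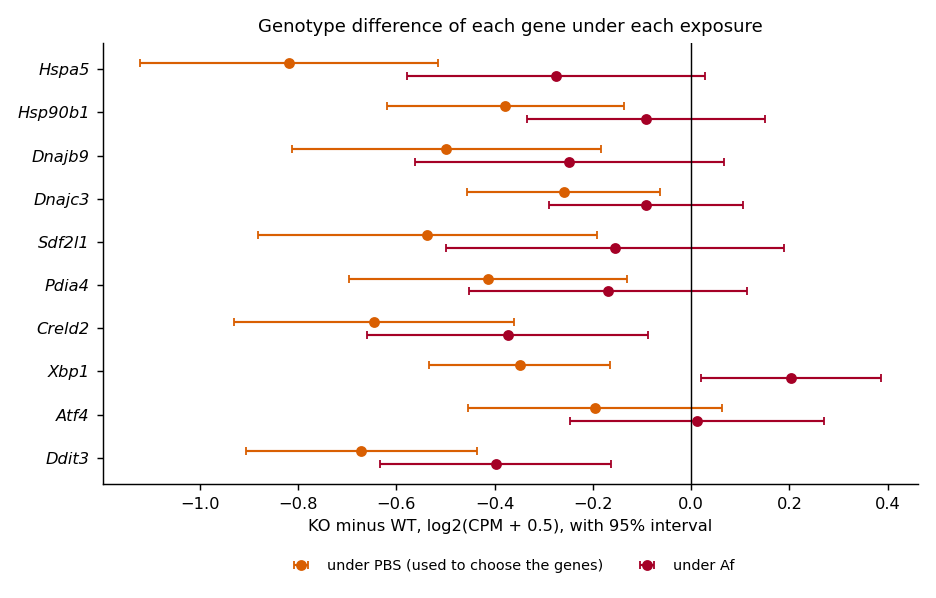
Knockout minus wild type for each gene under PBS (orange, the contrast used to choose the genes) and under Af (red), on the log2(CPM + 0.5) scale with 95% intervals from limma. Under Af the intervals of Ddit3 and Creld2 lie below 0 and that of Xbp1 above 0, none with an adjusted p under 0.05.

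Libraries that were low for one gene of the set tended to be low for others. WT_PBS 16 was the lowest of its group for 8 of the 10 genes. Over the 12 libraries, deviations from the group mean had a median Pearson correlation of 0.54 across the 45 pairs of genes (range -0.57 to 0.86), with 35 pairs positive. These pairs share their libraries and are a description. Atf4 went against this with a mean correlation of -0.26 with the other 9 genes, and in WT_PBS it was lowest in library 15, where Hspa5 and Hsp90b1 were highest.

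Among the genes outside the set whose level followed its mean most closely over the 12 libraries (each of the 10 genes centred and scaled) were Uap1 (Pearson r = 0.99), Srprb (0.98), Bhlha15 (0.98) and Manf (0.97). Uap1 makes the sugar donor UDP-N-acetylglucosamine, and Srprb is a subunit of the receptor that docks ribosomes at the ER. Bhlha15 (Mist1), a transcription factor of secretory cells, was at 3.77 to 4.96 CPM in WT_PBS, 1.26 to 1.81 CPM in KO_PBS, 12 to 16.7 CPM in WT_Af and 9.12 to 14 CPM in KO_Af. Its groups did not overlap under PBS, beside 15.7% of all tested genes with lower non-overlapping groups, and overlapped under Af. These genes were picked for following the chosen genes over the same libraries, so their levels describe the pick and are no independent support.

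The 6 lists of other genes of the pathway, 147 genes of which 140 were tested, were examined in the same contrasts. These lists were written with earlier results of these data known, so they are not blind to the contrasts. Under PBS, 10 of the 140 fell in the knockout and none rose, beside 1.66% and 1.9% of all genes. At an unadjusted limma p under 0.05, 35 were lower and 2 higher, beside 2797 of all 16126 genes in either direction. Of the 140, 98 had a negative sign, and the median was -0.09, against 0.01 over all genes. Of 16 sensors and signalling genes none was called by limma (2 at an unadjusted p under 0.05, 1 in each direction), and the sensors themselves, named for their role after their values were seen, were among those not called: Ern1 (IRE1) was at 77.6 ± 3.19 CPM in WT_PBS and 67.8 ± 4.85 CPM in KO_PBS, Eif2ak3 (PERK) at 50.4 ± 5.09 and 47.5 ± 1.6 CPM, and Atf6 at 114 ± 1.82 and 117 ± 5.9 CPM.

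Of 28 other ER folding genes 4 fell. Fkbp14, a prolyl isomerase of collagen folding, fell from 31.3 ± 3.17 to 15.2 ± 2.34 CPM (-1.02 ± 0.18, limma adjusted p = 0.012). Hyou1 (GRP170), a nucleotide exchange factor for Hspa5, fell from 177 ± 16.8 to 118 ± 6.99 CPM (-0.58 ± 0.13, adjusted p = 0.0332). Manf, a secreted protein that binds Hspa5, fell from 83.8 ± 13.6 to 51.3 ± 5.09 CPM (-0.69 ± 0.17, adjusted p = 0.0453), and Txndc11, a thioredoxin-domain protein, by 0.31 on the log2 scale (adjusted p = 0.0456). Of 21 genes of ER-associated degradation 2 fell. Ube2g2, a ubiquitin-conjugating enzyme of this route, went from 71.5 ± 4.51 to 50.5 ± 1.07 CPM (-0.50 ± 0.07, adjusted p = 0.006). Herpud1, a scaffold of the retrotranslocation complex, went from 252 ± 24.8 to 156 ± 4.06 CPM (-0.69 ± 0.12, adjusted p = 0.0134). Syvn1, the ligase of that complex, differed by -0.36 ± 0.10 (adjusted p = 0.0775) and Derl3 by -0.97 ± 0.31 (adjusted p = 0.115) from 4.04 ± 2.02 CPM.

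None of 30 genes of ER import and the early secretory path was called by limma (5 lower at an unadjusted p under 0.05), and 22 had a negative sign. Sec24d, a coat protein of ER exit vesicles, came nearest at -0.45 ± 0.13 (limma adjusted p = 0.0749). Of 38 targets of ATF4 and CHOP, 4 fell. Chac1, a glutathione-degrading enzyme, fell from 13.2 ± 4.41 to 4.2 ± 0.422 CPM (-1.49 ± 0.24, adjusted p = 0.00771). Sesn2, a stress-induced regulator of mTORC1, fell from 34.3 ± 1.75 to 22.1 ± 1.41 CPM (-0.62 ± 0.10, adjusted p = 0.00898). Cebpg, a dimerisation partner of ATF4, fell by 0.37 (adjusted p = 0.0196) and Atf3 by 1.34 ± 0.33 (adjusted p = 0.0474), the latter with a wild-type SD of 36.2 CPM on a mean of 52.8 CPM. From the same list Asns (asparagine synthetase, named after its values were seen) was at 22.1 ± 3.08 CPM in WT_PBS and 20.5 ± 0.712 CPM in KO_PBS. None of 7 CHOP-linked death genes was called by limma (2 lower at an unadjusted p under 0.05), and Bid and Pmaip1 had positive signs (0.14 ± 0.18 and 0.20 ± 0.14).

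Leaving out each of the 12 libraries in turn, Chac1, Sesn2 and Ube2g2 kept their calls in all fits, and Fkbp14 lost its call only without KO_PBS 9 (adjusted p = 0.0554). Cebpg and Herpud1 lost theirs without WT_PBS 17 or any 1 of the KO_PBS libraries, with adjusted p up to 0.0873 and 0.0709. Hyou1 was called in 6 of the 12 fits and lost without WT_PBS 15 or 17, any KO_PBS library or WT_Af 20 (adjusted p up to 0.126). Manf, Txndc11 and Atf3 were called in 3 of 12 fits each, with adjusted p up to 0.154, 0.166 and 0.158. Manf was called without WT_PBS 16, KO_Af 12 or KO_Af 14, Txndc11 without WT_PBS 16, KO_Af 12 or KO_Af 13, and Atf3 without WT_PBS 15, WT_PBS 17 or KO_Af 12. The count of 10 lower genes became 3, 4 and 4 when KO_PBS 9, 10 and 11 were left out. It became 5 without WT_PBS 17, 6 without WT_Af 20 and 16 without KO_Af 12. It was 10 without WT_PBS 17 and KO_Af 12 together, and 19 by DESeq2.

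**Figure D4:**
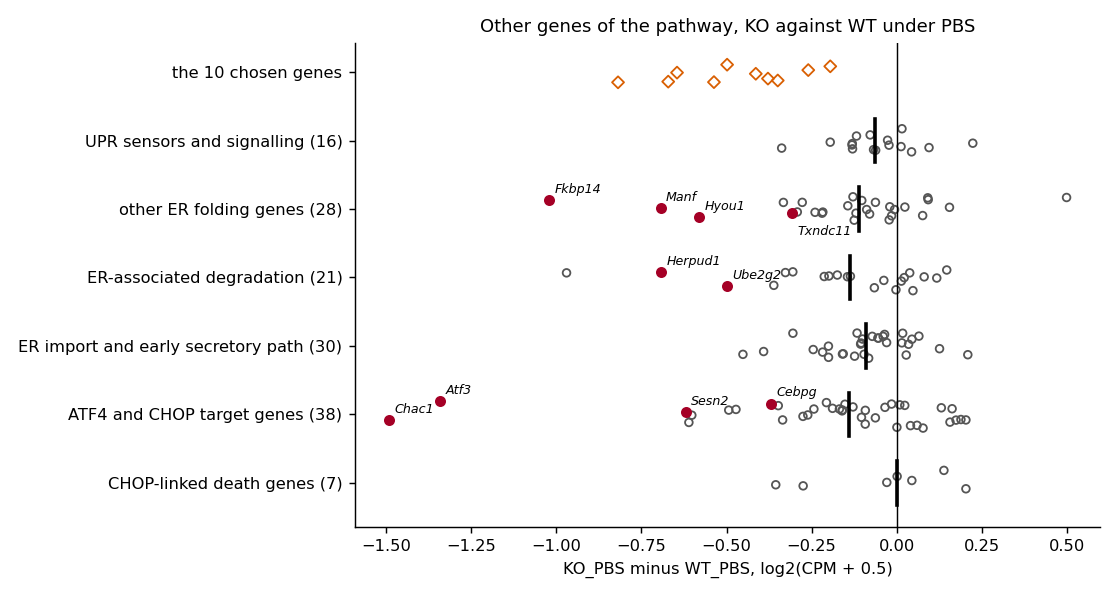
Knockout minus wild type under PBS on the log2(CPM + 0.5) scale for the 10 chosen genes (diamonds, given with no call) and for the tested genes of 6 lists of other pathway genes (circles, the number tested in brackets), with each list's median as a bar. Filled and named circles are the 10 genes called at an adjusted p under 0.05, all of them lower in the knockout.

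The same lists responded widely to Af. In knockout lung 95 of the 140 genes rose and 11 fell (28.7% and 29.2% of all genes), with a median of 0.49, and in wild-type lung 78 rose and 13 fell (26.2% and 25.6% of all genes), with a median of 0.32. ER import and the early secretory path rose most uniformly, with 27 of 30 genes higher in the knockout and 24 of 30 in the wild type. Of the folding genes 20 of 28 rose in the knockout and 15 of 28 in the wild type. Manf responded by 1.70 ± 0.17 in the knockout (limma adjusted p = 8.12e-06) and 1.05 ± 0.17 in the wild type (adjusted p = 0.000352). Pdia6, a protein disulfide isomerase, rose from 208 ± 14.4 to 471 ± 38.8 CPM in the knockout (adjusted p = 1.72e-06) and from 254 ± 21.7 to 446 ± 14.8 CPM in the wild type (adjusted p = 3.73e-05). Eif2s1, which encodes the eIF2 subunit that PERK phosphorylates, responded by 1.39 ± 0.10 (adjusted p = 8.9e-07) and 1.02 ± 0.10 (adjusted p = 1.13e-05).

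Some genes that were low beside the chosen genes under PBS did not rise with them in both genotypes under Af. Herpud1 fell under Af in both genotypes, by 0.34 in the knockout (limma adjusted p = 0.0333) and by 0.55 in the wild type (adjusted p = 0.00314), to 124 ± 19.8 and 172 ± 19.4 CPM. The call in the knockout was kept in 14 of the 22 alternative analyses and that in the wild type in all 22. Chac1 fell in wild-type lung by 1.05 (adjusted p = 0.00331) and differed by 0.20 ± 0.24 in the knockout (adjusted p = 0.479), ending at 5.88 ± 0.291 and 5.04 ± 1.44 CPM. Atf3 rose in the knockout by 2.18 ± 0.33 (adjusted p = 0.000177) and differed by 0.36 ± 0.33 in the wild type (adjusted p = 0.376), a value that became -0.0138 without WT_PBS 15.

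In the interaction of genotype and Af, limma and edgeR called none of the 140 genes, beside 0.0062% of all genes called in the positive direction by limma. At an unadjusted limma p under 0.05 there were 25, 24 of them positive, beside 1750 of all 16126 genes in either direction. Of the 140, 114 had a positive sign, and the median was 0.16. Fkbp14 came nearest, at 1.43 ± 0.25 (limma adjusted p = 0.0852), with 22.8 ± 2.87 CPM in WT_Af and 31 ± 8.38 CPM in KO_Af. Ube2g2 (0.41 ± 0.11, adjusted p = 0.168), Atf3 (1.82 ± 0.46, adjusted p = 0.164) and Chac1 (1.25 ± 0.34, adjusted p = 0.187) followed. DESeq2 called 9 of the 140 in the interaction, beside 366 of all genes. Between genotypes under Af, none of the 140 was called by limma or edgeR. DESeq2 called 2, both lower, beside 189 of all genes. By limma 89 of the 140 were higher and 51 lower in the knockout, with a median of 0.05. At an unadjusted limma p under 0.05 there were 18 of the 140, 15 higher and 3 lower, beside 1807 of all 16126 genes in either direction. Without KO_Af 13, limma called 1 of the 140 in the interaction.

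Other stress genes moved beside the 10 under PBS. Of 20 cytosolic heat shock genes, which answer to HSF1 rather than to ER sensors, 18 fell in the knockout and none rose, with a median of -1.09. Hsph1 (Hsp110) fell from 240 ± 50.4 to 32.1 ± 1.59 CPM (-2.86 ± 0.18, limma adjusted p = 1.98e-05), Dnaja1 from 533 ± 80.5 to 152 ± 8.26 CPM and Hsp90aa1 from 869 ± 120 to 319 ± 11 CPM. The summed level of the list was 7967 to 10997 CPM in WT_PBS and 3390 to 3748 CPM in KO_PBS. Under Af it was 7322 to 8510 CPM in the wild type and 4991 to 5924 CPM in the knockout, still apart, where 2 of the 20 fell (Hsph1, -1.49 ± 0.18, adjusted p = 0.0122, and Dnaja1, -0.87 ± 0.14, adjusted p = 0.0462). Hspa5 and Hsp90b1 together summed to 1376 to 1655 CPM in WT_PBS, 993 to 1086 CPM in KO_PBS, 2234 to 2440 CPM in WT_Af and 1792 to 2351 CPM in KO_Af.

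Of 14 tested glucocorticoid-induced genes 3 fell under PBS: Fkbp5, the FK506-binding co-chaperone of the receptor (-3.13 ± 0.42, limma adjusted p = 0.00332), Zbtb16 (-3.72 ± 0.63, adjusted p = 0.0106) and Cdkn1a (-1.36 ± 0.15, adjusted p = 0.00146). A negative sign was found for 13 of the 14, with a median of -0.65, and 9 were lower at an unadjusted limma p under 0.05. The sum of the list was 1986 to 2356 CPM in WT_PBS, 1226 to 1500 CPM in KO_PBS, 1561 to 2251 CPM in WT_Af and 2189 to 4293 CPM in KO_Af. Of 20 immediate early genes 1 rose (Egr3, 1.40 ± 0.33, adjusted p = 0.0438) and 1 fell (Atf3), and the sums of that list overlapped under both exposures. In the interaction of genotype and Af, limma called no gene of these lists. The sign was positive for 20 of 20 heat shock genes (median 0.73) and 14 of 14 glucocorticoid-induced genes (median 1.25). It was positive for 12 of 20 immediate early genes (median 0.07), and the median of the 10 chosen genes was 0.27. The part of these lists in the levels of the 10 genes was not tested.

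Of 19 lists of cell type markers, 6 had summed levels that were higher in all KO_PBS than in all WT_PBS libraries, and none was lower. B cell markers summed to 83.1 to 247 CPM in WT_PBS and 351 to 385 CPM in KO_PBS (2 of 10 called higher), with 271 to 331 and 269 to 362 CPM in WT_Af and KO_Af. In the same order of groups, endothelial markers summed to 4300 to 5185 and 5760 to 6088 CPM (1 of 10 higher), monocyte markers to 419 to 538 and 600 to 649 CPM (4 of 10 higher) and T cell markers to 68.1 to 125 and 133 to 167 CPM (0 of 10 called, 2 higher at an unadjusted p under 0.05). Under Af these 3 lists overlapped, at 3614 to 4439 and 2923 to 4237 CPM, 849 to 969 and 951 to 1297 CPM, and 152 to 506 and 141 to 172 CPM. NK cell markers, with Klra8 at 0 in all PBS libraries, summed to 21.5 to 39.6 and 59.4 to 72.1 CPM (2 of 8 tested higher), and under Af to 55.5 to 79.4 and 58.1 to 90 CPM. Neutrophil markers were apart under both exposures, at 382 to 436 and 509 to 840 CPM under PBS (2 of 10 higher) and 827 to 1266 and 1381 to 2017 CPM under Af (0 of 10 called by limma, 3 higher at an unadjusted p under 0.05). In these lists the genes of highest level included Cd79a (32.6 ± 18.8 and 67.2 ± 4.44 CPM in WT_PBS and KO_PBS), Cdh5, Csf1r (167 ± 7.76 and 173 ± 16.3 CPM), Il7r, Gzma (9.42 ± 2.98 and 23.5 ± 2.52 CPM) and Lcn2 (219 ± 21.6 and 243 ± 62.2 CPM).

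The summed levels of the secretory cell types showed no such separation under PBS. Most single markers were lower in the knockout, beside 49% of all genes. These were 9 of 12 plasma cell (median -0.52), 9 of 10 mucous (median -0.43) and 8 of 10 alveolar type 2 markers (median -0.05). Of the club cell markers, 6 of 9 were lower (median -0.13). The lean was not particular to secretory types, since 8 of 10 fibroblast (median -0.33) and 7 of 8 smooth muscle markers (median -0.11) were lower too. All B cell, endothelial and T cell markers were instead higher. At an unadjusted limma p under 0.05, 4 plasma cell markers were lower and 1 higher, and 3 mucous markers were lower. Plasma cell markers summed to 1773 to 5482 CPM in WT_PBS and 962 to 2016 CPM in KO_PBS, overlapping, with Prdm1 called higher and Ighg1 lower of 12 tested, and to 1712 to 5570 CPM in WT_Af and 2087 to 3099 CPM in KO_Af. Mucous cell markers summed to 196 to 331 and 149 to 224 CPM, also overlapping, with Muc5b (-1.06 ± 0.20, limma adjusted p = 0.0154) and Spdef (-0.71 ± 0.15, adjusted p = 0.024) lower of 10 tested. Under Af the mucous sum was 1658 to 2016 CPM in the wild type and 2141 to 2355 CPM in the knockout, apart, with 0 of 10 called by limma (3 higher at an unadjusted p under 0.05). Alveolar type 2 markers overlapped under both exposures. The part of these cell types in the levels of the 10 genes was not tested.

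**Figure D5:**
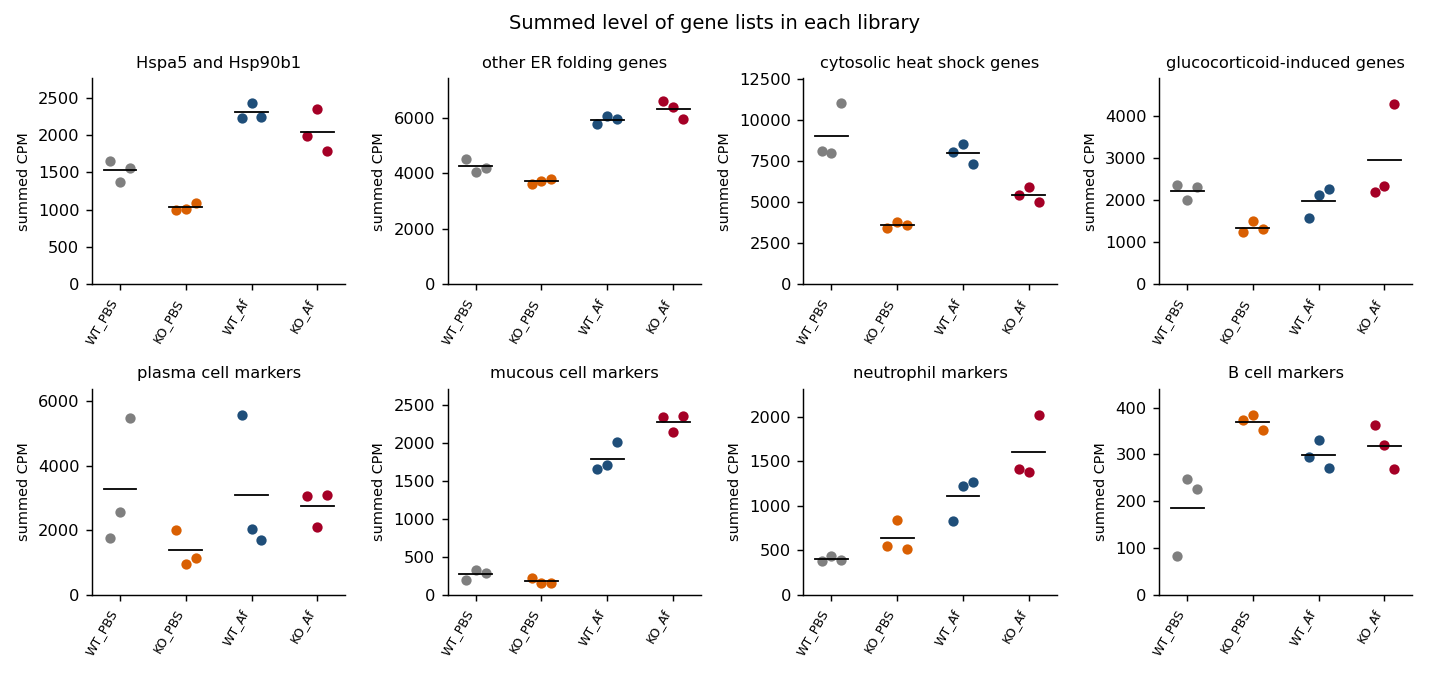
Summed CPM of 8 gene lists in each library (points, 3 per group, linear axes from 0) with the group mean as a line. The heat shock sum separates the genotypes under both exposures, the sums of Hspa5 with Hsp90b1, other ER folding genes, glucocorticoid-induced genes and B cell markers separate them under PBS only, and the neutrophil sum is higher in the knockout under both.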

How the data were processed

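Per the labels' protocols, RNA came from Qiagen RNEasy and libraries from the Illumina TruSeq mRNA kit. The authors used cutadapt 1.18, STAR 2.7.6a and RSEM 1.3.0, with GRCm38 and GRCh38 listed as builds, per the submitters' processing notes. The deposited table holds a linear signal per gene and library, TMM-scaled CPM; all values were whole multiples of 1 read (100% within 0.01), which gave 20708884 to 30229446 reads per library. Of the identifiers, 49326 (99.5%) matched GENCODE M21 on GRCm38, the source of coordinates and exon lengths. Promoters are from RefSeq.

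The 16126 genes that reached 1 CPM in 3 or more libraries were fitted with limma 3.58.1 (R 4.3.3, trend) on log2(CPM + 0.5), which understates changes of low genes, in 1 fit of 4 groups with 8 residual degrees of freedom, and called at a Benjamini-Hochberg adjusted p under 0.05. No label says that libraries are separate animals, so a p-value here measures the spread between the libraries, which may be technical. Alternatives included edgeR 4.0.16 and DESeq2 1.42.0 on recovered reads and other pseudocounts, filters and subsets. The 10 genes and all lists were chosen with earlier results of these data known. Named were the 10 genes and Rgs4, per pathway list up to 4 genes with the smallest p between genotypes under PBS and up to 2 for the interaction, 3 per stress list, the 2 highest genes of marker lists that moved, and the 5 genes of nearest pattern (no immunoglobulin, T cell receptor, Gm or Rik names). Not all of those are reported here. Figures were drawn with matplotlib 3.10.9.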

Additional observations from a re-analysis of the deposited data

How the results depend on the processing

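No paired analysis was possible because each library number occurs once and the groups share none. Of 2926 values of single genes under 22 alternatives, 2762 kept their direction and side of the threshold, 109 lost a call, 45 gained one and 10 changed sign. Counts of genes called in the Af comparisons stayed within 1.5 times of those reported. Between genotypes under PBS 573 genes were called, against 373 with no filter, 1124 with only the compared groups and 1216 with DESeq2, and 131 to 1230 with 1 library left out. Between genotypes under Af the 14 calls became 8 at a mean of at least 5 CPM, 3 with only the compared groups and 189 with DESeq2, and 3 to 110 with 1 library left out. The 1 call of the interaction became 2 with a pseudocount of 1, 5 after rescaling by the median of ratios, 366 with DESeq2, 0 with no filter, 0 at a mean of at least 5 CPM and 0 with no trend, and 0 to 187 with 1 library left out. Of the 140 other pathway genes, the 10 lower under PBS became 6 with no filter and 19 with DESeq2, and 3 to 16 with 1 library left out. DESeq2 called 9 of them higher in the interaction (limma 0, and 0 to 1 with 1 library left out) and 2 lower between genotypes under Af. The causes were not tested. Some small differences changed sign with 1 library left out. The response of Atf3 in the wild type ran from -0.0138 to 0.878, that of Dnajc3 from -0.00878 to 0.0819 and that of Mbtps2 from -0.0637 to 0.043 (0.0148 and 0.0104 without WT_Af 18 and 19). Under Af the genotype difference of Atf4 ran from -0.0794 (without WT_Af 18; -0.0742 without KO_Af 14) to 0.0734 and that of Sdf2l1 from -0.258 to 0.0051. That of Bid under PBS ran from -0.00833 to 0.272, and the interaction of Pmaip1 from -0.292 to 0.00912. With 3 libraries a group, no difference of the 10 genes between genotypes under Af passed the adjusted threshold, which does not show that they were equal.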

Other observations

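The exact ERSE letters were not limited to the chosen genes. They occurred in the promoter windows of 37 genes, 33 of them outside the set, of which 14 were tested. Of these 14, Calr, Canx, Derl3, Pdia6 and Syvn1 belong to the lists of other pathway genes and were named after their values were seen. Between genotypes under PBS, 10 of the 14 had a negative sign and 4 a positive one, with a median of -0.23 and no call by limma. The pathway genes Calr, Canx, Derl3, Pdia6 and Syvn1 were all negative. The genes outside the lists had both signs, with Acacb, Adcy3, Hnrnpa3 and Pan2 positive. In response to Af, 7 of the 14 had a positive and 7 a negative sign in each genotype. The same pathway genes were all positive in both genotypes, and outside the lists only Alg12 and Hnrnpa3 were. The test with limma called 6 higher and 5 lower in knockout lung, beside 28.7% and 29.2% of all genes, and 7 higher and 3 lower in wild-type lung, beside 26.2% and 25.6%.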
